A study of Mus musculus with 2 samples.

Results

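The genes Spp1, Cd44, Lgals1, Lgals3 and Lgals9 were followed across the cell classes of mouse plantaris muscle after tenotomy. They are 5 of 32285 gene identifiers in the count files, and they were selected on the higher Spp1 and Lgals3 levels in several tenotomy classes of these same libraries. The levels of these genes are therefore given as a description, with no test. Spp1 encodes osteopontin, a secreted phosphoprotein that binds integrins through an arginine-glycine-aspartate motif and also binds CD44. Cd44 encodes the main cell-surface receptor for hyaluronan. Lgals1, Lgals3 and Lgals9 encode galectins, lectins that bind beta-galactosides on glycoproteins and can crosslink them at the cell surface. In injured muscle, osteopontin and galectin 3 are known as products of macrophages, and galectin 1 is known to be made by myoblasts.

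The tenotomy library came from the plantaris muscles of 5 male C57BL/6 mice, 12 weeks old, taken 4 days after the cut, and the sham library from the plantaris muscles of the other side of the same mice. The 5 muscles of a side were combined before collagenase digestion. Living cells, positive for Calcein AM and negative for propidium iodide, were sorted for 10x Chromium 3-prime single-cell RNA sequencing. The tenotomy file held 11950 barcodes with 94556283 unique molecular identifiers (UMIs) and the sham file 8463 barcodes with 47781353 UMIs. Filtering kept 10928 tenotomy cells (median 5860 UMIs) and 7533 sham cells (median 4841 UMIs). The libraries shared 33 barcodes. With 1 library a side there is no replicate, treatment and library cannot be told apart, and all values in brackets are 95% intervals that cover counting error only.

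Cells were clustered with the 5 genes left out of the genes used, and clusters were named from marker lists, so class names end in "-like". Of 15 named classes, 9 held at least 50 cells on both sides and were compared. Monocyte/macrophage-like cells made up 41.1% of tenotomy cells and 4.85% of sham cells. CPM is the usual scaling of counts to a common total, here over the summed UMIs of a class. A gene was measured in a class with at least 25 UMIs over both libraries, and it is called higher or lower when the ratio of CPM, tenotomy over sham, passed 2-fold.

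Spp1 lies at chr5:104435118-104441050 on the plus strand of mm10, Lgals3 at chr14:47367751-47386160 on the plus strand, Cd44 at chr2:102811141-102901665 on the minus strand, Lgals1 at chr15:78926725-78930465 on the plus strand and Lgals9 at chr11:78962974-78984946 on the minus strand. The exons of Gm42793 overlap those of Spp1 on the same strand in the GENCODE annotation, and Gm42793 was not used here. The 250 bases before the RefSeq start of Spp1 (chr5:104434861-104435110, plus strand, GRCm38.p6) and of Lgals3 (chr14:47373610-47373859, plus strand) are shown because these are the genes that were at least 2-fold higher in every class compared. For Spp1 the more upstream of 2 listed starts was used. The Lgals3 window lies inside the gene interval given above, since its RefSeq start is downstream of the start of that interval. Capitals mark matches to the motifs searched on both strands.
Spp1: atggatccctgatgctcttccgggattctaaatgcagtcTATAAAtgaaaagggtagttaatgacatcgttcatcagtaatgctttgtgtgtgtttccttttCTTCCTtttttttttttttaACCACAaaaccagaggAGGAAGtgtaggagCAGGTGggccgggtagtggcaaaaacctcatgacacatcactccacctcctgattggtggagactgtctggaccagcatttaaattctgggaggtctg
Lgals3: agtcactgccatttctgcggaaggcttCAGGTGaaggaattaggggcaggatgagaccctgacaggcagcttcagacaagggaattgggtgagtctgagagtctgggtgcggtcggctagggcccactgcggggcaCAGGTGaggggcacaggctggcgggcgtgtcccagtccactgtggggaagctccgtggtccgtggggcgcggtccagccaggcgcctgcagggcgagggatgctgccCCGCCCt

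The Spp1 window held 2 ETS letters (AGGAAG), 1 RUNX (TGTGGT), 1 E-box (CANNTG) and 1 TATA box (TATAAA), and its GC content was 43.6%. The Lgals3 window held 2 E-boxes and 1 GC box (GGGCGG), and its GC content was 66%. The E-box letters were the only ones of the 8 motifs searched that both windows held, and 66.2% of 32817 RefSeq mouse windows of the same length hold them as well. The ETS letters stood in 29.5% of these windows, the RUNX letters in 14%, the TATA box in 12.4% and the GC box in 32.7%. The AP-1 (TGANTCA), NF-kB and STAT (TTCNNNGAA) letters were in neither window. No motif overlapped another in these 2 windows, and a match is a description of letters, not a site.

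Over the 9 classes compared, 43 pairs of a gene and a class were measured, of which 31 were at least 2-fold higher in tenotomy and 0 at least 2-fold lower. Spp1 was higher in 9 of 9 classes, Lgals3 in 9 of 9, Lgals1 in 8 of 9, Cd44 in 4 of 8 and Lgals9 in 1 of 8. In the tenotomy library Spp1 and Lgals3 lay within the free RNA range in blood endothelial-like and pericyte or smooth muscle-like cells. The Lgals3 calls of these classes were lost once the free RNA share was taken off, as given below. In B cell-like, tenocyte-like and myofibre-like cells both genes lay within the range of a second list of background genes, also given below. Lgals3 lay within that range in mesenchymal progenitor-like and perineurial-like cells as well. Among all measured genes the share called higher was 7.24% in monocyte/macrophage-like cells, 15.2% in mesenchymal progenitor-like cells and 33.9% in muscle stem cell-like cells. It was 8.91% in blood endothelial-like, 5.39% in pericyte or smooth muscle-like, 6.07% in tenocyte-like, 6.37% in perineurial-like, 8.41% in B cell-like and 13% in myofibre-like cells. The share called lower was 15.9% in monocyte/macrophage-like, 19.6% in mesenchymal progenitor-like, 12.2% in muscle stem cell-like, 8.46% in blood endothelial-like and 8.15% in pericyte or smooth muscle-like cells. It was 9.9% in tenocyte-like, 8.49% in perineurial-like, 4.75% in B cell-like and 10% in myofibre-like cells. Because these contrasts chose the genes, nothing is read from the counts against these shares.

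**Figure D1:**
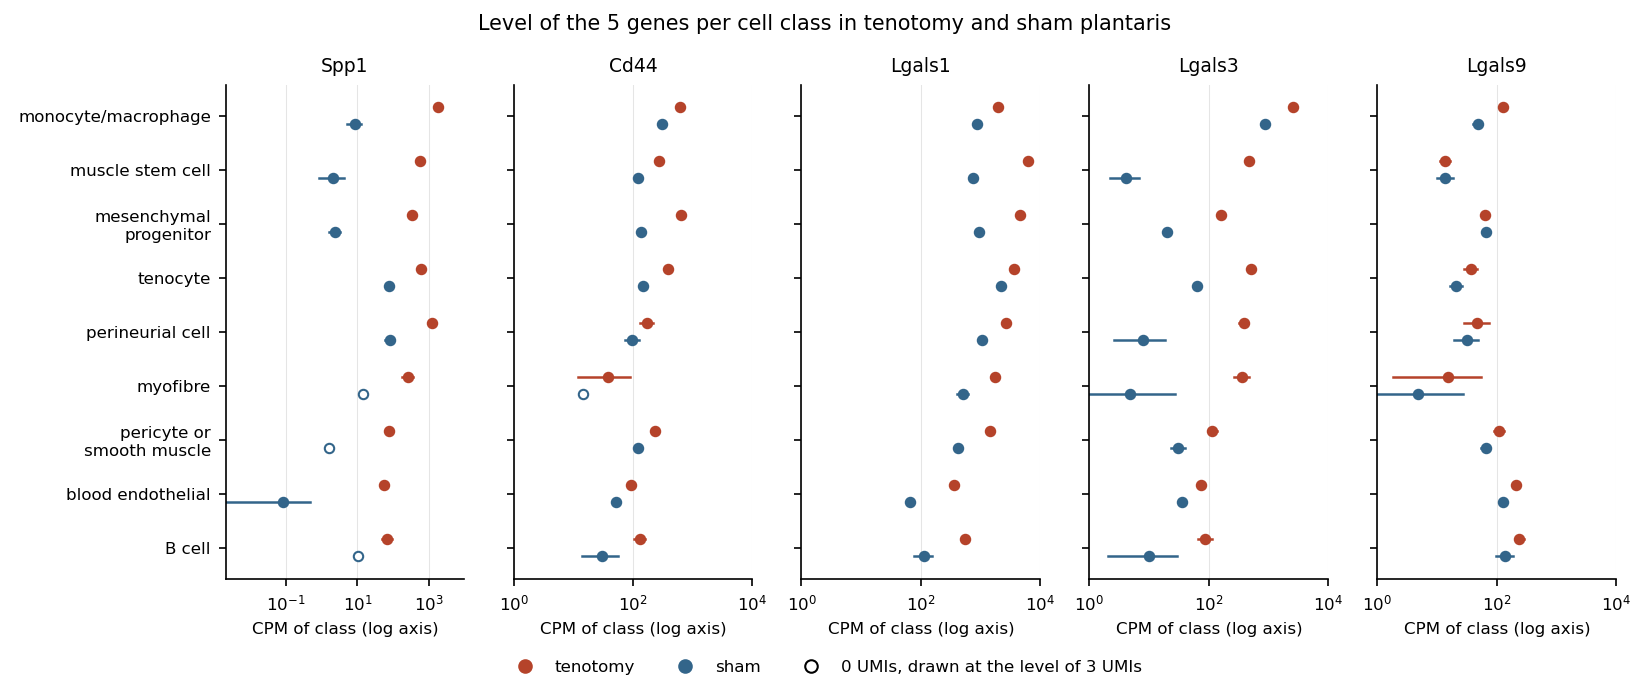
CPM of the 5 genes (log axis) in the 9 classes compared, with 1 point for the tenotomy library (red) above 1 for the sham library (blue); lines are exact Poisson 95% intervals and open points are classes with 0 UMIs. Spp1 stood at 1777 CPM in tenotomy and 8.31 CPM in sham monocyte/macrophage-like cells, while Lgals9 stood at 62.3 and 66.0 CPM in mesenchymal progenitor-like cells.

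The ligand Spp1 stood under 10 CPM in sham cells of the macrophage, myogenic and mesenchymal classes. In monocyte/macrophage-like cells it had 1777 CPM (1762 to 1793) in tenotomy and 8.31 CPM (5.14 to 12.7) in sham, a ratio of 214 (140 to 346) that was the highest of 11854 measured genes. In muscle stem cell-like cells it had 562 CPM in tenotomy and 2.04 CPM in sham, a ratio of 276 (134 to 687) that rests on 7 sham UMIs. In mesenchymal progenitor-like cells it had 346 CPM in tenotomy and 2.30 CPM in sham, a ratio of 150 (109 to 213). Ordered by ratio, Spp1 held rank 5 of 11321 genes in the muscle stem cell-like class and rank 11 of 13929 in the mesenchymal one.

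Perineurial-like and tenocyte-like cells had the highest sham Spp1 levels of the classes compared, in 10.4% of 106 and 7.06% of 411 sham cells. Perineurial-like cells, which sheathe nerve fascicles, had 1232 CPM in tenotomy and 79.2 CPM in sham, a ratio of 15.6 (11.6 to 21.3). Tenocyte-like cells, the fibroblasts of tendon, had 603 CPM in tenotomy and 76.5 CPM in sham, a ratio of 7.89 (6.92 to 9.0). Tenocyte-like cells held 301 of the 791 Spp1 UMIs of the sham library, and Schwann or other glial-like cells, too few to be compared, held 117, of which 115 were in 1 cell. In 4 further classes the sham library had 1 or 0 Spp1 UMIs. Blood endothelial-like cells had 57.2 CPM in tenotomy and 1 UMI in sham, and Spp1 was at least 49.5-fold higher in pericyte or smooth muscle-like, 17.7-fold higher in myofibre-like and 6.66-fold higher in B cell-like tenotomy cells, with 3 sham UMIs as the floor of each class. In each of these 4 classes at least 1 free RNA gene stood above Spp1, as given below.

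The order of Spp1 levels in the tenotomy library ran from monocyte/macrophage-like cells (1777 CPM) through perineurial-like (1232), Schwann or other glial-like (956), tenocyte-like (603), muscle stem cell-like (562), mesenchymal progenitor-like (346), myofibre-like (256) and neutrophil-like cells (225). The intervals of monocyte/macrophage-like (1762 to 1793) and perineurial-like cells (1126 to 1346) did not overlap those of the classes after them. The perineurial-like level rests on 8 of 74 cells, which held 85.9% of its Spp1 UMIs and had 11367 CPM of myeloid genes. The tenocyte-like level rests mostly on 13 of 205 cells, which held 89.0% of its Spp1 UMIs and had 6938 CPM of myeloid genes. The Schwann or other glial-like level rests on 8 cells with Spp1. The intervals cover counting error and not this spread between cells. Further down the order the interval of tenocyte-like cells (566 to 642) met that of the muscle stem cell-like class (547 to 578), and that of myofibre-like cells (178 to 358) held those of mesenchymal progenitor-like (339 to 352) and neutrophil-like cells (206 to 245). In the sham library the highest named class was the Schwann or other glial-like one, at 307 CPM (254 to 368), in 4.41% of 68 cells. Neutrophil-like cells followed at 156 CPM (127 to 190), with 43 cells, and their tenotomy level was 225 CPM.

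Of the named classes, monocyte/macrophage-like and dendritic-like cells had the highest Lgals3 levels on both sides, and Lgals3 was also higher in tenotomy outside them. In monocyte/macrophage-like cells it had 2552 CPM in tenotomy and 854 CPM in sham, a ratio of 2.99 (2.86 to 3.12). Dendritic-like cells had 2331 CPM in tenotomy and 2352 CPM in sham, where 45 sham cells were present. Schwann or other glial-like cells, too few to be compared, had 1585 CPM in 42 tenotomy cells and 78.8 CPM in 68 sham cells. The muscle stem cell-like class had Lgals3 at 466 CPM in tenotomy and 4.08 CPM in sham, a ratio of 114 (68.1 to 209). The ratio was 8.03 (7.18 to 9.0) in mesenchymal progenitor-like cells, with 160 CPM in tenotomy and 19.9 CPM in sham. Tenocyte-like cells had 507 CPM in tenotomy and 64.0 CPM in sham, and perineurial-like cells 382 CPM in tenotomy and 7.92 CPM in sham. In mesenchymal progenitor-like, tenocyte-like and perineurial-like cells Lgals3 did not exceed every free RNA gene set beside it below. Blood endothelial-like cells were least apart, at 74.1 CPM in tenotomy and 35.4 CPM in sham.

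Lgals1 was expressed by most stromal and myogenic cells on both sides. Muscle stem cell-like cells had 6300 CPM in tenotomy and 755 CPM in sham, a ratio of 8.34 (8.02 to 8.68), and 97.9% of tenotomy and 79.5% of sham cells had a UMI. Mesenchymal progenitor-like cells had 4630 CPM in tenotomy and 939 CPM in sham, a ratio of 4.93 (4.85 to 5.01). Tenocyte-like cells were the class in which Lgals1 stayed under 2-fold, with 3544 CPM in tenotomy and 2146 CPM in sham. In the sham library they held the highest Lgals1 level of the named classes.

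The receptor Cd44 was higher in mesenchymal progenitor-like cells, at 647 CPM in tenotomy and 138 CPM in sham, a ratio of 4.68 (4.48 to 4.88). It was also called higher in B cell-like cells (ratio 4.28), tenocyte-like cells (2.61) and muscle stem cell-like cells (2.23). The B cell-like ratio rests on 9 sham UMIs and was 1.17 with the libraries clustered apart. The muscle stem cell-like ratio was under 2-fold in 3 of 16 alternatives, at 1.92 after thinning, 1.61 over the median ratio of all genes and 1.48 in cells without UMIs of the myeloid genes described below. In monocyte/macrophage-like cells Cd44 had 606 CPM in tenotomy and 307 CPM in sham, a ratio of 1.97 (1.83 to 2.12), which reached 2-fold in 7 of 16 alternatives. The cluster with the highest Cd44 level was an unnamed one led by neutrophil genes (cluster 16), with 2177 CPM in 269 tenotomy cells and 1978 CPM in 25 sham cells.

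Lgals9 was called higher in monocyte/macrophage-like cells alone, at 126 CPM in tenotomy and 47.5 CPM in sham, a ratio of 2.65 (2.21 to 3.21). Its ratio was 0.943 (0.875 to 1.02) in mesenchymal progenitor-like cells and 0.985 (0.697 to 1.41) in muscle stem cell-like cells. In the other classes where it was measured the ratio lay between 1.49 in perineurial-like and 1.78 in tenocyte-like cells. Levels of Lgals9 were highest in B cell-like cells (238 CPM in tenotomy, 134 CPM in sham) and blood endothelial-like cells (205 CPM in tenotomy, 127 CPM in sham).

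Over all kept cells Spp1 stood at 798 CPM in tenotomy and 17.9 CPM in sham, a ratio of 44.5. When each class of the tenotomy library was weighted by its share of the sham UMIs, the ratio was 21.7, and when sham levels were weighted by the tenotomy makeup it was 0.904. For Lgals3 the ratio of 8.63 became 3.02 at the sham makeup, and the makeup alone gave 3.56. The ratio of Lgals1 was 4.19 and became 3.95, that of Cd44 was 3.66 and became 2.85, and that of Lgals9 was 1.21 and became 1.41. The makeup of classes alone thus gave a ratio above 3 for Lgals3 and one under 1 for Spp1. The weights are those of whole classes, so shifts between clusters within a class are not part of this makeup. Macrophage cluster 2, mesenchymal cluster 4 and myogenic cluster 23, whose Spp1 is given below, held 0, 4 and 3 sham cells.

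Within tenotomy monocyte/macrophage-like cells the clusters ran from 14.6 to 3696 CPM of Spp1. Cluster 2, led by Gpnmb, Syngr1 and Trem2, genes of lipid-handling macrophages, had 3696 CPM and Spp1 in 91.8% of 1249 tenotomy cells. It held 0 sham cells, and Spp1 was among its 10 leading genes although it took no part in the clustering. Cluster 0, led by the resident-type genes Cbr2, Ccl8, F13a1 and Folr2, had 913 CPM in tenotomy (59.2% of 1069 cells) and 27.1 CPM in sham (4 of 38 cells). Cluster 12, the one with Ly6c2 monocyte genes, had 893 CPM in tenotomy (53.1% of 1518 cells) and 27.4 CPM in sham (4.17% of 24 cells). Cluster 35, with the resident genes Cd209f, Cd163 and Lyve1, held 280 of the 365 sham cells of the class and had 14.6 CPM in 23 tenotomy cells and 1.68 CPM in sham. The class therefore consists of different clusters on the 2 sides.

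Lgals3 was ordered differently over these clusters. Cluster 12 had the highest level, 3350 CPM in tenotomy and 4121 CPM in sham, and was followed in tenotomy by cluster 2 at 2903 CPM. In cluster 0 Lgals3 had 1468 CPM in tenotomy and 1244 CPM in sham, and in cluster 35 it had 526 CPM in tenotomy and 237 CPM in sham. The 2.99-fold ratio of the class was thus not seen within clusters 0 and 12, where tenotomy and sham stood closer together. Cd44 had 470 CPM in tenotomy and 464 CPM in sham in cluster 0, and 781 CPM in tenotomy and 988 CPM in sham in cluster 12. Lgals1 was higher in tenotomy in clusters 0 (2577 CPM in tenotomy, 1485 CPM in sham), 12 (1548 CPM in tenotomy, 635 CPM in sham) and 35 (1549 CPM in tenotomy, 814 CPM in sham).

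**Figure D2:**
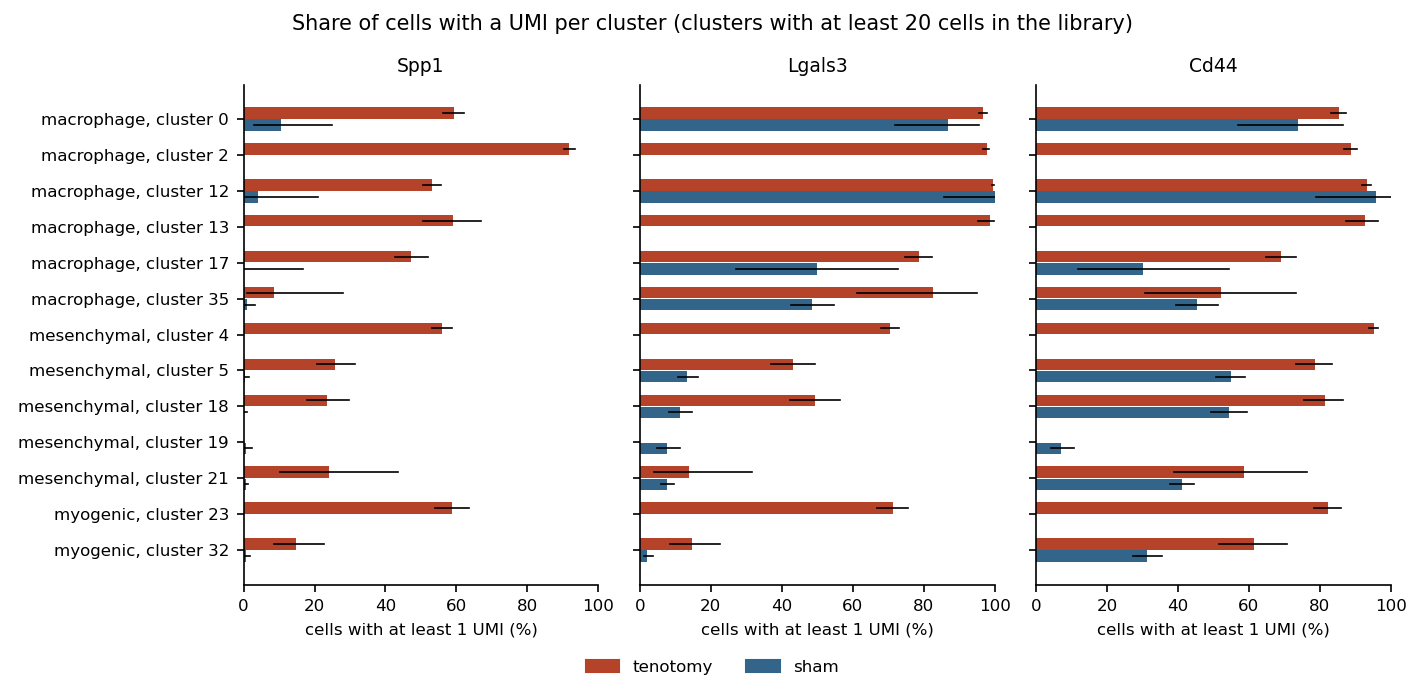
Percent of cells with at least 1 UMI of Spp1, Lgals3 and Cd44 in the clusters of 3 classes, tenotomy (red) above sham (blue), for clusters with at least 20 cells in that library; lines are exact binomial 95% intervals. Spp1 was found in 91.8% of cells of macrophage cluster 2, 58.7% of myogenic cluster 23 and 55.9% of mesenchymal cluster 4, each of which held fewer than 5 sham cells.

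Spp1 outside the macrophages was likewise a feature of certain clusters. Among mesenchymal progenitor-like cells, cluster 4, marked by Postn and Tnc, matrix genes of activated fibroblasts, had 378 CPM in 1262 tenotomy cells and was represented by 4 sham cells. Clusters 5 (Pi16), 18 (Gdf10 and Sfrp4) and 21 (Smoc2) were present on both sides. In these clusters Spp1 had 54.0, 49.7 and 55.6 CPM in tenotomy, against 2.59, 0 and 2.91 CPM in sham. Among muscle stem cell-like cells, cluster 23 had 599 CPM in 426 tenotomy cells and was represented by 3 sham cells. Its leading genes include the differentiation genes Myog, Ttn and Mymk. All 10 differentiation markers and all 12 cell-cycle markers were found in at least 10% of its cells. In a finer clustering (resolution 2), a myogenic cluster with Top2a and Cenpf among its leading genes held 324 tenotomy cells. Another, with Myog and Mymk, held 103. Cluster 32, with Chrdl2 and Myf5, had 34.9 CPM in 109 tenotomy cells and 2.06 CPM in 510 sham cells.

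Outside the macrophages, Lgals1 and Cd44 stood higher in tenotomy also in mesenchymal clusters 5, 18 and 21 and myogenic cluster 32, which both sides held. In mesenchymal cluster 5 Cd44 had 524 CPM (493 to 556) in tenotomy and 184 CPM (173 to 195) in sham, and in cluster 18 it had 531 CPM in tenotomy and 183 CPM in sham. In myogenic cluster 32 Cd44 had 374 CPM (325 to 427) in tenotomy and 123 CPM (111 to 135) in sham. The tenotomy level was above the 268 CPM of tenotomy cluster 23. Lgals1 had 2402 CPM in tenotomy and 957 CPM in sham in cluster 5, and 1741 CPM in tenotomy and 717 CPM in sham in cluster 32. Lgals3 had 125.1 CPM in tenotomy and 23.7 CPM in sham in cluster 5, 206 CPM in tenotomy and 28.8 CPM in sham in cluster 18, and 47.1 CPM in tenotomy and 4.13 CPM in sham in cluster 32.

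Free RNA from lysed cells puts UMIs of abundant transcripts into droplets of other cells, so levels were set beside 24 myeloid genes that mesenchymal and myogenic cells should lack. In the tenotomy library these genes stood, in mesenchymal progenitor-like cells, between 1.71% (Ms4a6c) and 3.87% (Cx3cr1) of their monocyte/macrophage-like level, with a median of 2.16%. Spp1 stood at 19.4% and Lgals3 at 6.26%. In the muscle stem cell-like class the list ran from 1.57% (Ctss) to 5.32% (Clec4d) with a median of 2.53%, and Spp1 stood at 31.6% and Lgals3 at 18.3%. Both genes were above the highest list gene in 6 of 12 classes outside the phagocytes, the others being the tenocyte-like, perineurial-like, myofibre-like and Schwann or other glial-like ones. In blood endothelial-like cells Spp1 stood at 3.22% and Lgals3 at 2.91%, beside a list median of 2.08%. Only Lst1, at 5.96%, stood above them there, and the next list gene was Tyrobp at 2.87%. In pericyte or smooth muscle-like cells Spp1 stood at 4.43% beside a list median of 4.30%. The tenotomy Spp1 and Lgals3 UMIs of these 2 classes, and of erythroid-like and lymphatic endothelial-like cells, lie within the range of the list and are not read as expression. In sham blood endothelial-like cells Lgals3 stood at 4.14%, above the highest list gene of that library, Lst1 at 3.14%. In B cell-like and T or natural killer-like cells the list gives no background, since these cells use several of its genes themselves.

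A second list of 7 genes of lipid-type macrophages, the kind of cell with most Spp1, gave higher background levels. Its highest gene stood at 6.33% (Mmp12) in mesenchymal progenitor-like and 14.1% (Cd300lf) in muscle stem cell-like cells, and Spp1 was above both. Lgals3, at 6.26%, was not above it in mesenchymal progenitor-like cells, and at 18.3% was above it in muscle stem cell-like cells. In tenocyte-like cells Gpnmb stood at 37.8%, above Spp1 at 33.9% and Lgals3 at 19.9%. In myofibre-like cells Cd68 stood at 27.3%, above Spp1 at 14.4% and Lgals3 at 13.9%, while 4 of the 7 genes stood at 0. By this list Spp1 and Lgals3 of tenocyte-like and myofibre-like cells are not told apart from free RNA. In Schwann or other glial-like cells Spp1, at 53.8%, and Lgals3, at 62.1%, were above Cd300lf at 39.7%. In perineurial-like cells Spp1, at 69.3%, was above Gpnmb at 31.7%, whereas Lgals3, at 15%, was not. In B cell-like cells the second list had a median of 2.93% and reached 18.6% (Cd300lf). Spp1, at 3.77%, and Lgals3, at 3.37%, lay within it and are not read as expression there.

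The same measure separated the clusters. Spp1 stood at 21.3% in mesenchymal cluster 4, where the highest list gene stood at 3.8%, and at 33.7% in myogenic cluster 23, where it stood at 5.31%. In clusters 5, 18 and 21 Spp1 stood at 3.04%, 2.80% and 3.13%, beside list medians of 2.90%, 2.46% and 1.60%, and in myogenic cluster 32 it stood at 1.96% beside 1.55%. Spp1 of these 4 clusters was within the range of the list, as was Lgals3 of clusters 5, 21 and 32, and their tenotomy levels are not read as expression. Lgals3 of cluster 18 stood at 8.09%, above the list's highest value of 4.53%. Cd44 stood at 86.5% in cluster 5 and 61.7% in cluster 32, and Lgals1 at 122% and 88.5%, far above the list.

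**Figure D3:**
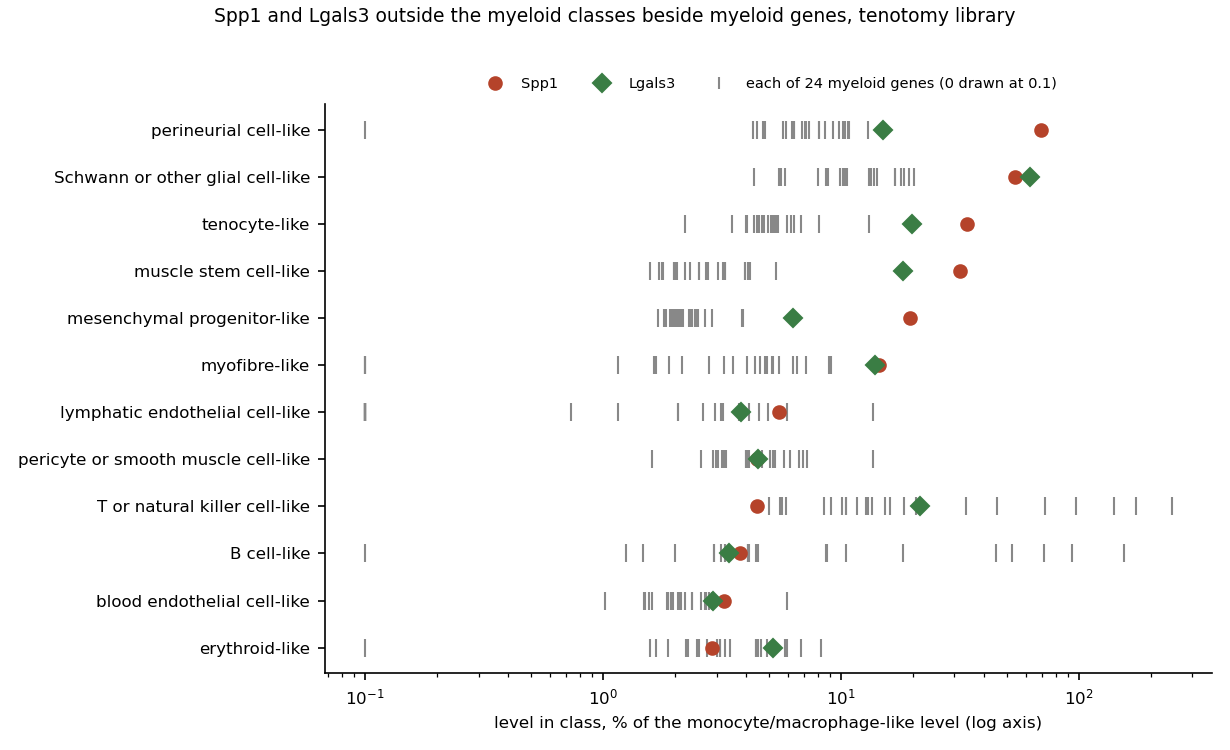
Level of Spp1 (red circles) and Lgals3 (green diamonds) in 12 classes outside the phagocytes of the tenotomy library, as percent of their monocyte/macrophage-like level (log axis), beside each of 24 myeloid genes (grey marks). Spp1 lay right of all grey marks in 6 classes, at 19.4% in mesenchymal progenitor-like and 31.6% in muscle stem cell-like cells; in B cell-like and T or natural killer-like cells several list genes, such as Coro1a and Ptprc, are the cells' own.

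After the free RNA share (the median of the list times the macrophage level of the gene) was taken off, Spp1 was 136-fold higher in tenotomy mesenchymal progenitor-like and 259-fold higher in muscle stem cell-like cells. Lgals3 was 6.88-fold higher in mesenchymal progenitor-like cells, and its ratio turned to 0.640 in blood endothelial-like cells and 0.201 in pericyte or smooth muscle-like cells. The 2-fold calls of Lgals3 in these 2 classes thus did not hold. The Spp1 ratio of blood endothelial-like cells stayed at or above 58.5 in 15 alternatives, but it rests on 1 sham UMI. Tenotomy cells with 0 UMIs of the list were few and shallow in the mesenchymal and myogenic classes. There were 70 mesenchymal progenitor-like ones, with Spp1 at 97.4 CPM (66.6 to 137), against 346 CPM in the whole class, and the 20 of them in cluster 4 had 221 CPM (143 to 327). The 30 muscle stem cell-like ones had 36.7 CPM (11.9 to 85.7), against 562 CPM in the whole class, and this interval overlaps that of 223 blood endothelial-like cells, at 27.2 CPM (15.6 to 44.2). In sham, 51.8% of mesenchymal progenitor-like cells had 0 UMIs of the list, at a median depth of 8332 UMIs, and Spp1 stood there at 2.16 CPM.

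In cells, Spp1 was unevenly spread. Of tenotomy mesenchymal progenitor-like cells, 46.9% had a Spp1 UMI, and of sham ones 0.470%. In the muscle stem cell-like class 49.7% of tenotomy and 0.585% of sham cells had one. Among monocyte/macrophage-like cells the share was 64.7% in tenotomy and 2.74% in sham. Blood endothelial-like cells, where tenotomy Spp1 was within the free RNA range, had a share of 14.3% in tenotomy and 0.0306% in sham. The median depth of tenotomy cells was 14962 UMIs in the mesenchymal progenitor-like, 13529 in the muscle stem cell-like and 2945 in the blood endothelial-like class. After each cell was thinned to 1000 UMIs, leaving out 477 tenotomy and 253 sham cells, the tenotomy shares were 11.1% in mesenchymal progenitor-like, 21.1% in muscle stem cell-like, 42.1% in monocyte/macrophage-like and 4.96% in blood endothelial-like cells. The sham shares after thinning were 0.099%, 0%, 0.58% and 0% in the same order of classes.

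Cells with 10 or more Spp1 UMIs were 9.67% of tenotomy mesenchymal progenitor-like cells and held 87.6% of the Spp1 UMIs of that class, with up to 651 UMIs in a cell. Among muscle stem cell-like cells they were 21.9% of cells and held 91.7% of the UMIs. In blood endothelial-like cells there were 2 such cells among 1507. These cells were deeper, with medians of 26180 UMIs in the mesenchymal progenitor-like and 28956 in the muscle stem cell-like class, against 13604 and 10304.5 UMIs in the remaining cells.

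The myeloid genes moved with Spp1 in these cells to an extent that differed by class. Their summed level was 1238 CPM in mesenchymal progenitor-like cells with 10 or more Spp1 UMIs and 686 CPM in those with fewer. Muscle stem cell-like cells had 1085 CPM with 10 or more and 675 CPM with fewer, whereas monocyte/macrophage-like cells had 35255 CPM. In tenocyte-like cells the 13 cells with 10 or more Spp1 UMIs had 6938 CPM of myeloid genes, and the other cells 1269 CPM. In perineurial-like cells the 8 such cells had 11367 CPM and the others 977 CPM, and these 8 cells held 85.9% of the Spp1 UMIs of the class. For Lgals3, mesenchymal progenitor-like cells with 10 or more of its UMIs held 50.1% of them. They had 2514 CPM of myeloid genes, against 522 CPM in the others. In tenocyte-like cells such cells held 68.9% and had 4600 CPM, against 906 CPM. In perineurial-like cells 5 such cells held 79.2% and had 15876 CPM, against 562 CPM. Muscle stem cell-like cells had 952 CPM with 10 or more Lgals3 UMIs and 750 CPM with fewer. The part of macrophage RNA in these Spp1 and Lgals3 values was not tested.

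**Figure D4:**
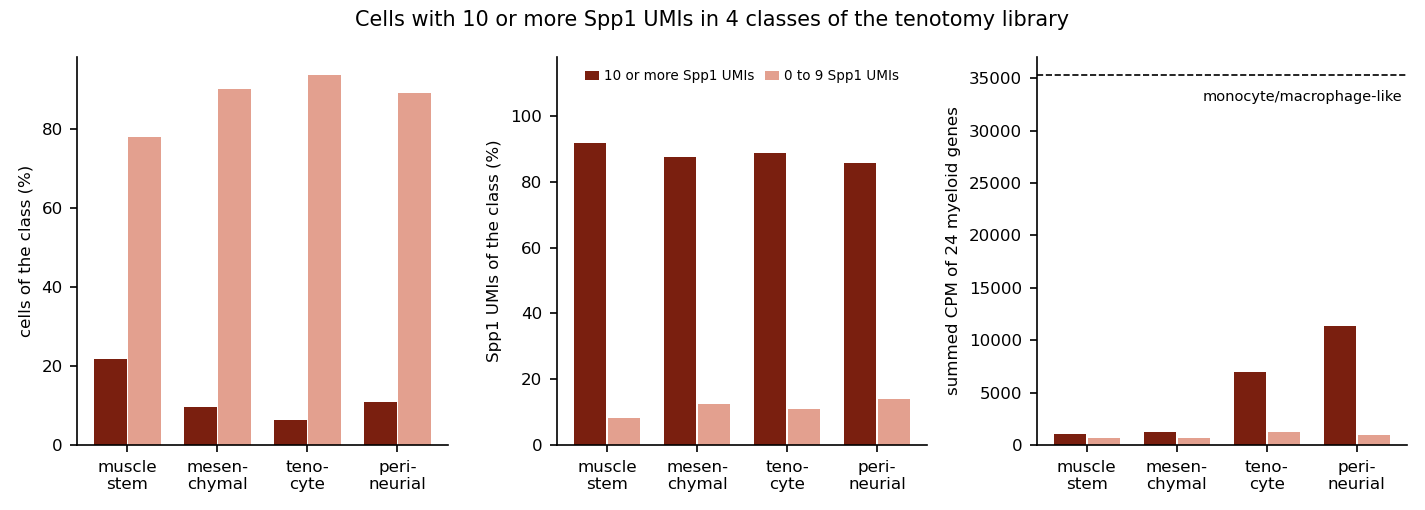
Tenotomy cells with 10 or more (dark) and 0 to 9 (light) Spp1 UMIs in 4 classes: their percent of the cells, their percent of the Spp1 UMIs, and the summed CPM of 24 myeloid genes, with the monocyte/macrophage-like level as a dashed line. A minority of cells held over 85% of the Spp1 UMIs in each class, and their myeloid level was 1085 CPM in muscle stem cell-like but 11367 CPM in perineurial-like cells.

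Cells called cycling, those with at least 2 UMIs over cell-cycle genes, differed from other cells in the level of Spp1, and in opposite directions by class. In tenotomy muscle stem cell-like cells Spp1 had 687 CPM in 305 cycling and 136 CPM in 230 other cells. In mesenchymal progenitor-like cells it had 402 CPM in 772 cycling and 242 CPM in 1007 other cells. In monocyte/macrophage-like cells it had 1119 CPM in 592 cycling and 1940 CPM in 3900 other cells. Cycling cells were deeper (19398 UMIs at the median against 6830 in muscle stem cell-like cells), and a count limit calls deep cells more often. Cd44 was nearly the same in both kinds of muscle stem cell-like cells, at 277 and 268 CPM. The split also overlaps with the clusters of this class. All 12 cell-cycle markers were found in at least 10% of cells in cluster 23, and 0 of 12 in cluster 32, where Spp1 was within the free RNA range. Cycling and cluster were not told apart for Spp1.

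Receptors and partners of the 5 genes did not share one direction. Counts of these lists stand beside all measured genes, of which 7.24% were higher and 15.9% lower in monocyte/macrophage-like, 15.2% higher and 19.6% lower in mesenchymal progenitor-like, and 33.9% higher and 12.2% lower in muscle stem cell-like cells. Of the 10 integrin subunits of osteopontin receptors, 2 of 7 measured in monocyte/macrophage-like cells were higher and 0 lower. Itgav, the alpha chain of the vitronectin receptor, had 155 CPM in tenotomy and 36.8 CPM in sham, and Itgb5, one of its partner chains, 115 CPM in tenotomy and 44.3 CPM in sham. Itgb1, Itgb3, Itga4, Itga5 and Itga9 lay within 2-fold, with ratios of 1.07, 0.795, 0.912, 1.90 and 0.896. In mesenchymal progenitor-like cells 2 of 10 subunits were higher and 3 lower. There Itga5, the fibronectin receptor chain, had 279 CPM in tenotomy and 119 CPM in sham, and Itga9 had 13.8 CPM in tenotomy and 45.1 CPM in sham. Itga8 had 1.54 CPM in tenotomy and 14.7 CPM in sham. Itga4, called higher there, stood at 2.04% of its macrophage level, the free RNA level. Of 8 subunits measured in muscle stem cell-like cells, 2 were higher and 1 lower, a share of higher genes under the 33.9% of all genes. Itga4, with 1 sham UMI, stood at 3.72% of its macrophage level, within the free RNA range, and Itgb6 had 112 UMIs in tenotomy and 0 in sham, at least 14.5-fold higher.

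Of 17 hyaluronan and Cd44 partner genes, 4 of 16 measured were higher and 1 lower in mesenchymal progenitor-like cells, 7 of 15 higher and 2 lower in muscle stem cell-like cells, and 2 of 15 higher and 1 lower in monocyte/macrophage-like cells. The median log2 ratio of the list was 0.53, 0.84 and -0.01 in these 3 classes, and that of all measured genes -0.07, 0.47 and -0.08. Has2, a hyaluronan synthase, had 19.4 CPM in tenotomy and 0.582 CPM in sham muscle stem cell-like cells. Cemip2, a hyaluronidase, had 90.2 CPM in tenotomy and 17.1 CPM in sham mesenchymal progenitor-like cells. Mmp14, a membrane protease that can cleave CD44, had 81.4 CPM in tenotomy and 2.37 CPM in sham monocyte/macrophage-like cells, a ratio of 34.3 (15.7 to 93.5). Lyve1, the hyaluronan receptor of resident macrophages, had 113 CPM in tenotomy and 567 CPM in sham. Hmmr, a hyaluronan receptor that is also a mitotic gene, had ratios of 31.0 in mesenchymal progenitor-like and 106 in muscle stem cell-like cells, where sham had 2 UMIs. Cd74, a CD44 partner called higher in mesenchymal progenitor-like cells, stood at 2.87% of its macrophage level, near free RNA.

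Of 9 osteopontin proteases and crosslinkers, 2 of 5 were higher and 2 lower in monocyte/macrophage-like cells, 3 of 7 higher and 3 lower in mesenchymal progenitor-like cells, and 1 of 4 higher and 1 lower in muscle stem cell-like cells. Mmp12, among those higher in mesenchymal progenitor-like cells, is the gene of the second free RNA list at 6.33% of its macrophage level. Tgm2, the transglutaminase that crosslinks osteopontin, had 157 CPM in tenotomy and 20.6 CPM in sham monocyte/macrophage-like cells. Mmp9 had 3.32 CPM in tenotomy and 104 CPM in sham there, and 8.61 CPM in tenotomy and 0.291 CPM (1 UMI) in sham muscle stem cell-like cells. Mmp3, stromelysin 1, had 39.5 CPM in tenotomy and 9.44 CPM in sham mesenchymal progenitor-like cells, and Phex had 3.64 CPM in tenotomy and 13.9 CPM in sham. Of the 4 relatives of Spp1 among the small integrin-binding glycoproteins, Ibsp had 49 UMIs in tenotomy and 0 in sham mesenchymal progenitor-like cells, and Dmp1 had 47 UMIs in tenotomy and 1 in sham muscle stem cell-like cells.

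Lgals3bp, the galectin 3 binding protein, was called higher in all 3 classes, with 161 CPM in tenotomy and 58.9 CPM in sham monocyte/macrophage-like cells, 83.5 CPM in tenotomy and 37.2 CPM in sham mesenchymal progenitor-like cells, and 9.17 CPM in tenotomy and 1.46 CPM in sham muscle stem cell-like cells, where sham had 5 UMIs. In muscle stem cell-like cells it stood at 5.7% of its macrophage level, beside the 5.32% of the highest myeloid list gene and under the 14.1% of the second list. Of the remaining galectins, Lgals8 lay within 2-fold in each of the 3 classes where it was measured. Lgals7 had 5.53 CPM in tenotomy and 0.787 CPM in sham mesenchymal progenitor-like cells, and Lgals4 1.16 CPM in tenotomy and 5.14 CPM in sham.

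Among 13 glycoproteins known to bind galectins, 2 of 12 were higher and 3 lower in monocyte/macrophage-like cells. Trem2, the lipid receptor of macrophages, had 599 CPM in tenotomy and 145 CPM in sham, and Tfrc, the transferrin receptor, had 40.3 CPM in tenotomy and 127 CPM in sham. In mesenchymal progenitor-like cells 5 of 11 were higher and 2 lower, but Trem2, Ptprc and Itgam stood there at 2.25%, 2.14% and 2.12% of their macrophage level, the free RNA level, and Havcr2 at 4.75%, under the highest gene of the second list. Of 8 measured in muscle stem cell-like cells 4 were higher and 1 lower. Trem2, Itgam and Ptprc stood there at 1.82%, 3.14% and 3.03% of their macrophage level, within the free RNA range, while Nrp1, a coreceptor of vascular growth factors, had 98.5 CPM in tenotomy and 30.3 CPM in sham. Of 7 enzymes that build galectin ligands on N-glycans, Mgat5, which makes the branches that galectin 3 prefers, was the 1 of 7 called higher in monocyte/macrophage-like cells, with 42.9 CPM in tenotomy and 15.8 CPM in sham. Of 6 measured in muscle stem cell-like cells 3 were higher and 0 lower, beside 33.9% of all genes higher there. Among them St6gal1, rests on 22 tenotomy and 4 sham UMIs, with an interval of 0.727 to 8.54. In mesenchymal progenitor-like cells 0 of 6 were higher and 1 lower.

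**Figure D5:**
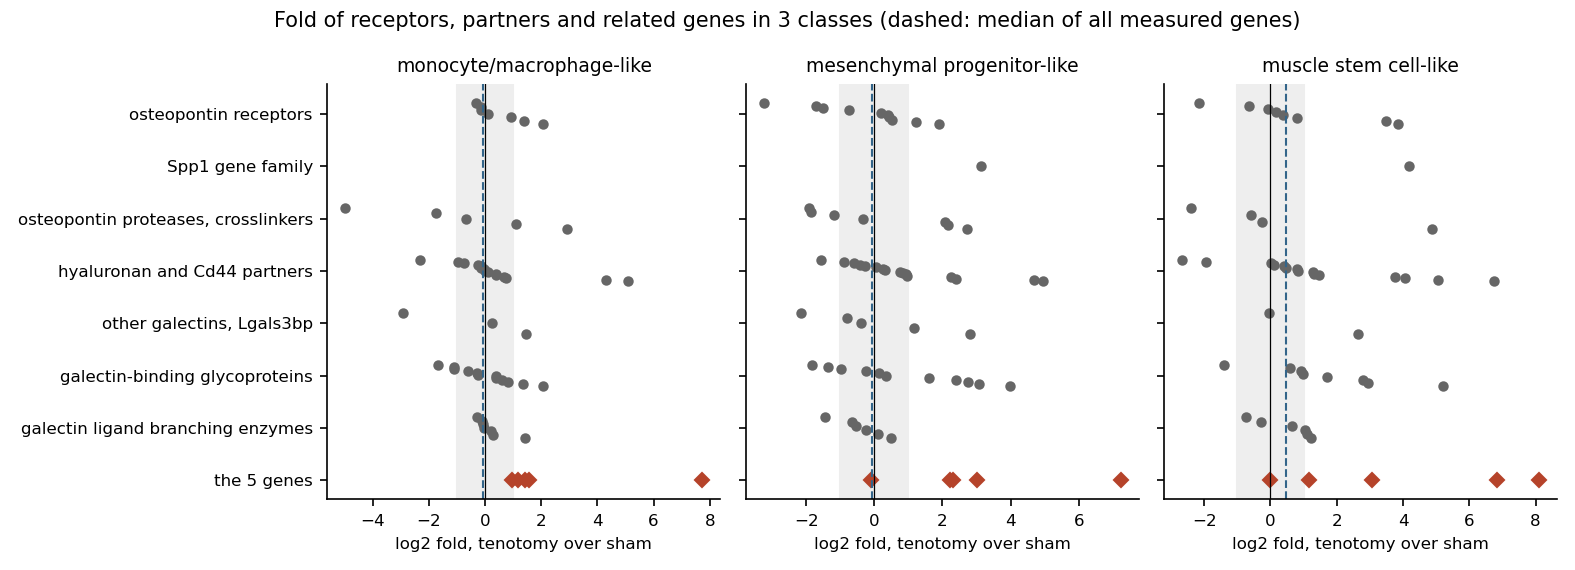
Log2 ratio of tenotomy over sham for measured genes of 7 lists (grey) and for the 5 genes (red) in 3 classes; the band marks ratios within 2-fold and the dashed line the median of all measured genes. The integrin and hyaluronan lists lie on both sides of 0 in each panel, and Spp1 lies furthest right in each panel.

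The genes whose pattern was most like each of the 5 over 23 class and library values were found by Pearson's r of log2(CPM + 1) among 7797 genes; the values share libraries, so r is a description. For Spp1 they were Lhfpl2 (0.79), Timp1 (0.77), S100a4 (0.76), Esd (0.76) and Tmem167 (0.75). For Lgals1 they were Timp1 (0.82), 2900097C17Rik (0.81), Cd63 (0.77), Fam20c (0.76) and Spcs1 (0.75). Cd44 was most like Calr (0.94), Ykt6 (0.88), Ebp (0.88), Flna (0.87) and Htt (0.86). Lgals3 was most like the myeloid genes Clec4n (0.91), Cd300c2 (0.91), Il1rn (0.91), Mpeg1 (0.90) and Ccr2 (0.90), and Lgals9 like Ly6e (0.90), Ppp2r5c (0.81), Ipmk (0.78), Tgfb1 (0.78) and Irf7 (0.78). Among the 5 genes themselves r was 0.71 between Spp1 and Lgals1 and between Spp1 and Lgals3, and -0.03 between Spp1 and Lgals9.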

How the data were processed

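The deposited values are UMI counts per gene and cell barcode; the authors made them with Cell Ranger 4.0.0 and mm10, per the submitters' processing notes, with no normalization. Symbols were found for 32158 of 32285 identifiers. Cells with at least 300 genes, 500 UMIs and at most 10% mitochondrial UMIs were kept. Scrublet in scanpy 1.11.5, run on each library, called 309 tenotomy (2.75%) and 205 sham (2.65%) doublets, which were removed. Both libraries were clustered together (2000 variable genes per library without the 5 genes, 30 components, 15 neighbours, Leiden resolution 1) into 39 clusters, of which 6 stayed unnamed. A cluster was named at a marker score of 0.42 or more, with 3 markers in 10% of its cells and any runner-up class at or under 0.58 times the leader; both score limits were picked once cluster scores were known, and class names are rebuilt, not the authors'. Ratios have exact conditional binomial 95% intervals, CPM exact Poisson and shares exact Clopper-Pearson ones; a side with 0 UMIs was taken at 3. Intervals cover counting error only. The fold and interval steps were tested on simulated data. The 5 genes and all lists were chosen with earlier results of these data known. Named pathway genes are, per list and class, among the 4 measured ones with the ratio furthest from 1, the integrin chains of osteopontin receptors and the 5 genes most like each member. With 1 library a side, no p-value was computed.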

Additional observations from a re-analysis of the deposited data

Results flagged for a closer look

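Some of the genes were at least 2-fold higher in tenotomy also in cells and barcodes outside the classes compared. In 344 tenotomy and 108 sham cells of unnamed clusters, Spp1 stood at 946 CPM in tenotomy and 389 CPM in sham, and Lgals9 at 117 CPM in tenotomy and 50.4 CPM in sham. The other genes were within 2-fold there, with ratios of 1.5 for Cd44, 1.31 for Lgals1 and 1.11 (0.991 to 1.24) for Lgals3. The sides hold different unnamed clusters: 269 of the tenotomy cells are of cluster 16, while clusters 36, 37 and 38, with 24, 20 and 21 sham cells, hold 0 tenotomy cells, and cluster 1 holds 0 sham cells. In the 309 tenotomy and 205 sham barcodes called doublets, Spp1 stood at 1071 CPM in tenotomy and 1.28 CPM in sham, Cd44 at 462 CPM in tenotomy and 117 CPM in sham, Lgals1 at 2660.0 CPM in tenotomy and 677 CPM in sham, and Lgals3 at 1236 CPM in tenotomy and 45.1 CPM in sham. In barcodes under the gene, UMI or mitochondrial limits, Spp1 stood at 720.2 CPM in tenotomy and 10.9 CPM in sham, Cd44 at 403 CPM in tenotomy and 95.3 CPM in sham, Lgals1 at 1698 CPM in tenotomy and 246 CPM in sham, and Lgals3 at 518 CPM in tenotomy and 20.2 CPM in sham. Lgals9 was within 2-fold in both kinds of barcode, with ratios of 1.35 and 1.47.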

How the results depend on the processing

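The count of 31 gene and class pairs at least 2-fold higher in tenotomy lay between 24 and 33 under every alternative run but one. With only cells free of UMIs over the myeloid list, it was 16 of 26 measured pairs, and the count of pairs whose share of cells was at least 2-fold higher was 4, against 20 with all cells; fewer cells were left. At resolution 2 the highest Spp1 level of a macrophage cluster was 4200 CPM, against 3696 CPM. Single ratios reversed in 3 cases. Without the free RNA share Lgals3 turned to 0.640 in blood endothelial-like and 0.201 in pericyte or smooth muscle-like cells, and with the libraries clustered apart Lgals1 turned to 0.641 in B cell-like cells; the cause of the last was not tested. The ratio of Spp1 ran from 116 to 443 in monocyte/macrophage-like, 45.0 to 168 in mesenchymal progenitor-like and 51.3 to 1857 in muscle stem cell-like cells, always higher in tenotomy. Leaving out the tenth of cells richest in myeloid genes, and the alternatives for free RNA (6 or 7 classes) and the pathway lists (36 to 53 genes higher, against 46), were chosen after seeing the data. No paired analysis was possible because each side is 1 pooled library. Depth limits B cell-like and myofibre-like values, whose sham Spp1 count was 0.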
